A study of Mus musculus with 16 samples.

Results

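The 10 genes described are Rest, which encodes a repressor of neuronal genes, and 9 genes of splicing factors that set or mark the neural splicing program, Srrm3, Srrm4, Ptbp1, Ptbp2, Celf5, Rbfox1, Rbfox2, Rbfox3 and Nova1. They were chosen by name with earlier results of these data known, and all 10 were found among the 21220 genes of the deposited normalized table. The libraries came from C57BL/6 mice at postnatal day 0, from the organ of Corti, which is the hearing epithelium of the inner ear. The organs were kept in culture for 3.5 days. Both treatments were given to wild-type cultures and to heterozygous ones, Rest(+/deltaExon4), in which 1 Rest allele lacks exon 4. Within each genotype, cultures received FK228 at 2 nM, a histone deacetylase inhibitor also known as romidepsin, or the solvent alone, 0.1% DMSO. Exposure ran over day 1 to 1.5 and again over day 3 to 3.5 in vitro. There were 4 libraries per group, made from RNA that was pooled from 6 to 8 cultures a library. The labels do not tie pools to litters, and p-values therefore cover the spread among pools, which may be technical in part.

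REST is a zinc finger protein that binds a sequence known as RE1 near many neuronal genes and recruits corepressors with histone deacetylases. SRRM4 and its relative SRRM3 promote the inclusion of short neural exons. One of these is the alternative exon 4 of Rest itself, whose inclusion shifts the reading frame and gives a truncated REST with little repressor activity. In the inner ear, this splicing event is known in mechanosensory hair cells, and mice that lack functional SRRM4 lose inner hair cells. PTBP1 represses neural exons in cells that are not neurons and keeps its neuronal relative PTBP2 low, the RBFOX proteins bind UGCAUG in introns beside regulated exons, and NOVA1 and CELF5 are RNA-binding proteins best known from neurons.

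The libraries held 12361027 to 23611571 gene counts. Reads outside genes made up 10.4% to 12.9% of reads in 3 libraries, wild-type solvent replicate 1 and heterozygous solvent replicates 4 and 5, and 16.2% to 20.8% in the other 13. Member calls that changed without these 3 libraries are given with both values. ERCC spike-in RNA made up 0.156% to 0.393% of the reads counted, with the highest shares, from 0.312%, in the heterozygous FK228 libraries. With spike-in scaling, the median over all 17125 tested genes was a log2 fold change of -0.18 for genotype in solvent, -0.74 for genotype with FK228, -0.16 for FK228 in wild-type cultures, -0.72 for FK228 in heterozygous cultures and -0.89 for heterozygous FK228 against wild-type solvent. In the same order, 1.73%, 75.1%, 38.1%, 67.3% and 75.1% of all genes then passed the test, most of them as lower, and 23.8% passed for the difference of the FK228 effects. These shares are the background of each count given below with spike-in scaling. All changes with TMM factors are thus changes against most other transcripts of a library, and in bulk RNA fewer cells of a type and less RNA per cell cannot be told apart. Of the marker lists of the tissue, all 10 hair cell markers and all 10 neuron markers had counts in every library, and no list had a marker at 0 throughout a group.

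Rest was measured at 963 to 1892 counts per library. In CPM (counts scaled to the library size with TMM factors), its levels in wild-type solvent were 85.5, 78.6, 75.2 and 86.4 in replicates 1, 2, 3 and 4. In wild-type FK228 they were 74.6, 79.9, 70.9 and 69.9 in replicates 1, 2, 4 and 7. In heterozygous solvent they were 78.1, 86.9, 94.8 and 93.4 in replicates 1, 2, 4 and 5, and in heterozygous FK228 87.3, 81.1, 79.7 and 75.8 in replicates 2, 3, 4 and 5. The ranges of neighbouring groups overlapped in each comparison of genotype or treatment. Between genotypes in solvent, the fit gave a log2 fold change of 0.12 ± 0.08 (SE), with a 95% interval from -0.05 to 0.28 and an adjusted p of 0.654 in edgeR's quasi-likelihood test. With FK228 it was 0.13 (95% interval -0.03 to 0.30, adjusted p = 0.525). FK228 against solvent gave -0.14 (-0.30 to 0.02, adjusted p = 0.141) in wild-type cultures and -0.12 (-0.29 to 0.04, adjusted p = 0.198) in heterozygous cultures. With TMM factors no Rest comparison passed the test, and the 4 intervals lay between -0.30 and 0.30. Under spike-in scaling both genotype values turned, to -0.06 in solvent and to -0.60 in FK228 cultures, of which the latter passed (adjusted p = 0.000627), and the FK228 value in heterozygous cultures was -0.83 (adjusted p = 1.7e-05).

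The count of Rest does not check the genotype label, because reads were counted over the whole gene. In GRCm38, Rest lies on chr5:77265491-77286432, plus strand, and GENCODE M21 lists 2 transcripts of 4 exons each. These transcripts join exon 3 (chr5:77275234-77275317) directly to the last exon (chr5:77280703-77286432), which holds the end of the coding sequence and the 3′ UTR. The alternative exon that the allele lacks lies between them, in a stretch of 5385 bases that M21 annotates as intron. The sequence across that junction is shown because it is the form made when the alternative exon is skipped, the form that encodes full-length REST. Lower case marks the last 40 bases of exon 3 and capitals the first 40 bases of the last exon, all of them coding.
Rest junction, chr5:77275278-77275317 joined to chr5:77280703-77280742: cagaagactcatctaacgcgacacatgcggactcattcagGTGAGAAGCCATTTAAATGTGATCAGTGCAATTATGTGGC
Reads that cross into the alternative exon were not analysed here, so the share of Rest transcripts with or without it has no value in these data.

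Per kb of exon, Ptbp1 had the highest level of the 10 genes and Rest the next in all 4 groups. The mean level in wild-type solvent was 23.0 ± 1.64 CPM per kb for Ptbp1 and 11.3 ± 0.751 for Rest (SD, n = 4). Ptbp2 followed at 4.30 ± 0.413 and Rbfox2 at 3.50 ± 0.343, and the ranges of these 4 genes did not overlap. Rbfox3, Rbfox1, Celf5, Srrm4 and Nova1 lay between 1.22 and 0.342 CPM per kb, and each overlapped the next in that order. Srrm3 was lowest in all 4 groups, at 0.0991 ± 0.0174 in wild-type solvent. With FK228, Celf5 moved from the seventh place in wild-type cultures and the eighth in heterozygous cultures to the third place in both.

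**Figure D1:**
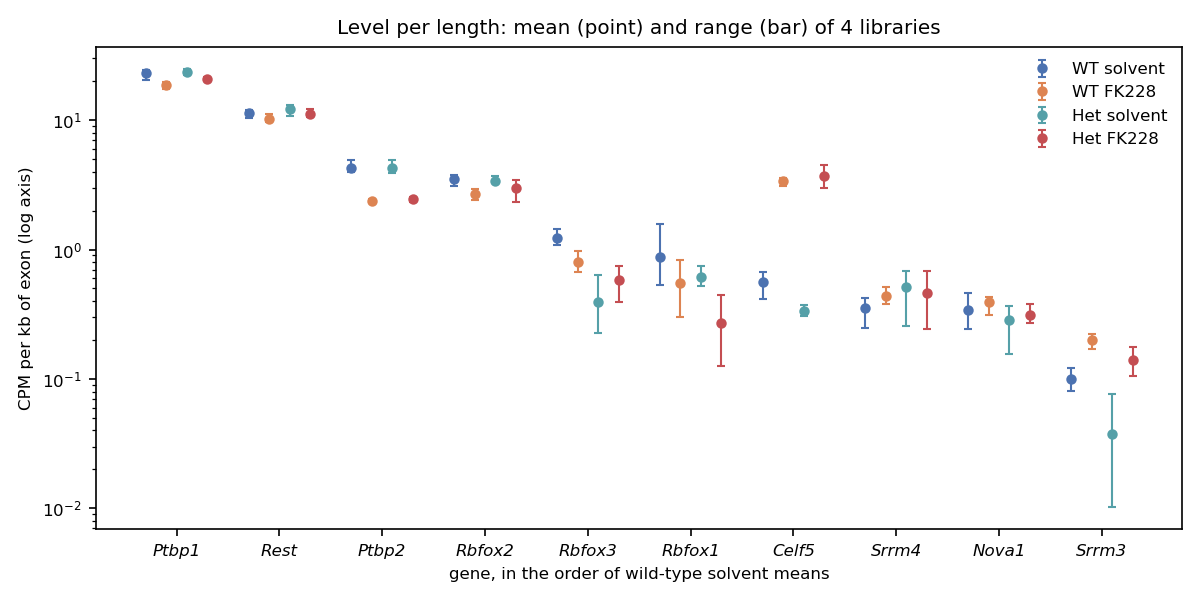
Level of each gene per kb of exon, on a log axis, in the order of the wild-type solvent means. Points are means and bars the range of 4 libraries for each of the 4 groups, and the points of Celf5 stand apart by treatment, at 0.563 and 0.338 CPM per kb in solvent against 3.38 and 3.68 with FK228.

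Srrm3 and Srrm4, the genes of the proteins that switch Rest exon 4, had different patterns. Srrm3 was higher with FK228 than with solvent in both genotypes, whereas no comparison of Srrm4 passed the test with TMM factors. Srrm3 was near the lower limit of the counts. In a fit of the solvent libraries alone it did not pass the count filter. It thus entered the test through its FK228 libraries, and its rise is not independent of that filter. In wild-type solvent it had 14, 11, 14 and 9 counts, in wild-type FK228 25, 18, 20 and 25, in heterozygous solvent 7, 1, 2 and 4, and in heterozygous FK228 15, 11, 10 and 13. These counts correspond to means of 0.635 ± 0.112, 1.28 ± 0.163, 0.241 ± 0.187 and 0.898 ± 0.216 CPM in the same order (SD, n = 4). The FK228 and solvent libraries did not overlap within either genotype, and neither did the genotypes in solvent.

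In wild-type cultures, FK228 raised Srrm3 by 1.01 ± 0.36 on the log2 scale (adjusted p = 0.0291, 2.01-fold). In heterozygous cultures the rise was 1.87 ± 0.45 (adjusted p = 0.00196, 3.66-fold). The wild-type call was lost when wild-type solvent replicate 1, 2 or 4 or wild-type FK228 replicate 1 or 7 was left out (adjusted p at most 0.0738). It was also lost without the 3 libraries with few reads outside genes (1.01, adjusted p = 0.0619), with no filter on low counts (adjusted p = 0.0789), with reads outside genes as a term (adjusted p = 0.1000) and on the deposited normalized signal (adjusted p = 0.0640). Both calls were lost with spike-in scaling, at 0.84 (adjusted p = 0.133) and 1.15 (adjusted p = 0.0576). Between genotypes in solvent, the fitted difference of Srrm3 was -1.39 (95% interval -2.33 to -0.45), which did not pass the test over all genes (adjusted p = 0.156). With FK228 it was -0.52 (-1.28 to 0.25, adjusted p = 0.620).

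Srrm4 had 28 to 91 counts per library. Its levels were 3.30, 2.15, 3.20 and 3.68 CPM in wild-type solvent and 4.48, 3.38, 4.17 and 3.28 in wild-type FK228. In heterozygous solvent they were 5.94, 5.96, 2.22 and 3.56, and in heterozygous FK228 2.12, 4.55, 5.88 and 3.54. The heterozygous libraries spread over more than the whole range of the wild-type ones, so the groups overlapped in every comparison of genotype or treatment. The fitted difference between genotypes in solvent was 0.52 (95% interval -0.13 to 1.17, adjusted p = 0.602). FK228 against solvent gave 0.31 (-0.34 to 0.97) in wild-type and -0.13 (-0.78 to 0.52) in heterozygous cultures, with adjusted p of 0.425 and 0.755. These intervals hold changes in either direction. Spike-in scaling put the heterozygous value at -0.92, and it passed the test (adjusted p = 0.0184).

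**Figure D2:**
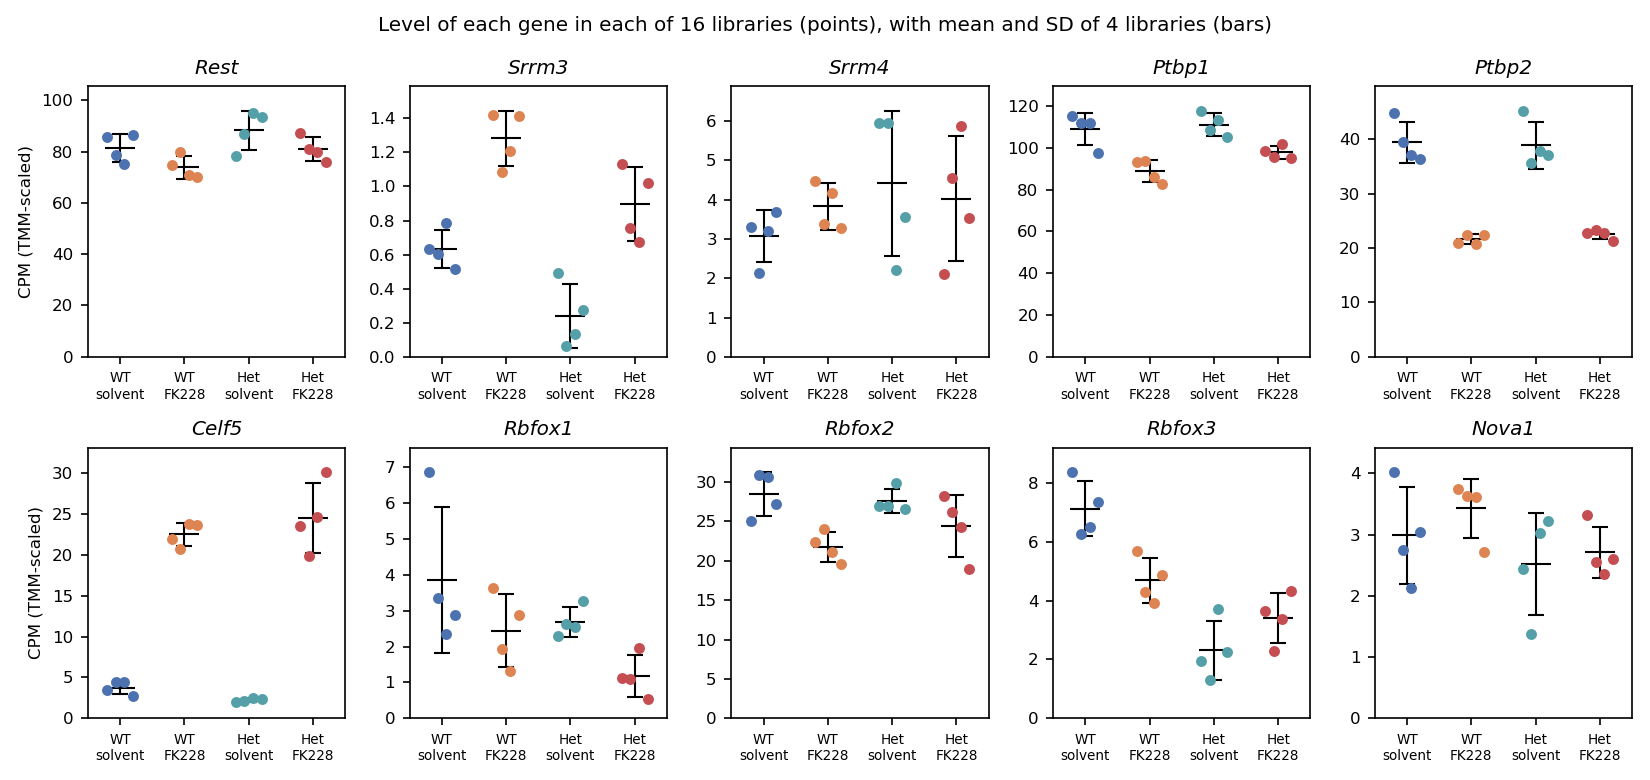
Level of each of the 10 genes in TMM-scaled CPM, on axes that start at 0. Points are the 16 libraries and bars the mean and SD of 4 libraries per group, and the FK228 libraries of Celf5 lie at 19.9 to 30.1 CPM against 2.03 to 4.43 in solvent.

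Ptbp1 and Ptbp2 both fell with FK228 in both genotypes, and Ptbp2 fell more. Ptbp1 levels were 115, 112, 112 and 97.6 CPM in wild-type solvent and 93.3, 93.7, 85.9 and 82.8 in wild-type FK228. They were 118, 108, 113 and 105 in heterozygous solvent and 98.5, 95.7, 102 and 95.1 in heterozygous FK228. Within each genotype all FK228 libraries lay below all solvent libraries. The fitted change of Ptbp1 was -0.29 ± 0.07 (adjusted p = 0.00173) in wild-type and -0.18 ± 0.07 (adjusted p = 0.0343) in heterozygous cultures. The heterozygous call was lost when heterozygous solvent replicate 1 or 4 or heterozygous FK228 replicate 2, 3 or 5 was left out (adjusted p at most 0.0969). It was also lost without the 3 libraries with few reads outside genes (-0.21, adjusted p = 0.0525), with no filter (adjusted p = 0.0899) and with reads outside genes as a term (adjusted p = 0.0627).

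Ptbp2 levels were 44.8, 39.5, 37.1 and 36.4 CPM in wild-type solvent and 21.0, 22.4, 20.8 and 22.5 in wild-type FK228. In heterozygous solvent they were 45.3, 35.6, 37.8 and 37.0, and in heterozygous FK228 22.8, 23.3, 22.7 and 21.3. Every FK228 library lay below every solvent library of either genotype. The fitted change of Ptbp2 was -0.87 ± 0.09 (adjusted p = 5.1e-07) in wild-type and -0.79 ± 0.09 (adjusted p = 1.6e-06) in heterozygous cultures, or 1.82-fold and 1.73-fold lower. Both calls held when each library was left out in turn. Neither gene differed by genotype past the test in solvent, where the intervals were -0.12 to 0.17 for Ptbp1 and -0.21 to 0.17 for Ptbp2. With FK228 the genotype values were 0.14 (adjusted p = 0.427) for Ptbp1 and 0.06 (adjusted p = 0.888) for Ptbp2.

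The ratio of Ptbp2 to Ptbp1 per kb of exon puts both paralogs on 1 scale within a library. It was 0.187 ± 0.0129 in wild-type solvent, 0.126 ± 0.0101 in wild-type FK228, 0.181 ± 0.0130 in heterozygous solvent and 0.119 ± 0.00485 in heterozygous FK228 (SD, n = 4). The highest FK228 library had a ratio of 0.140 and the lowest solvent library 0.170. The log2 ratio was lower with FK228 by 0.57 in wild-type and by 0.60 in heterozygous cultures, a fold of 1.48 and 1.52. By exact two-sided permutation, p was 0.0286 for each, the smallest that 4 against 4 libraries can give, with an adjusted p of 0.0571 over the 4 comparisons of the ratio, which did not pass. For genotype the exact permutation p was 0.486 in solvent and 0.286 with FK228. The spike-in shift does not enter this ratio.

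Celf5, a neuronal member of the CELF family, had the largest change of the 10 genes with FK228. Its levels were 3.43, 4.40, 4.43 and 2.76 CPM in wild-type solvent and 22.0, 20.7, 23.7 and 23.6 in wild-type FK228. They were 2.03, 2.10, 2.49 and 2.40 in heterozygous solvent and 23.5, 19.9, 24.7 and 30.1 in heterozygous FK228. The lowest FK228 library was more than 4 times the highest solvent library. FK228 raised Celf5 by 2.58 ± 0.16 on the log2 scale in wild-type cultures (adjusted p = 9.7e-10, 5.99-fold) and by 3.44 ± 0.17 in heterozygous cultures (adjusted p = 8.6e-11, 10.9-fold). With spike-in scaling the rises were 2.42 and 2.73, still past the test.

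In solvent, all heterozygous libraries lay below all wild-type libraries in Celf5, and the fitted difference was -0.73 ± 0.18 (adjusted p = 0.0366, 1.66-fold lower). This call was lost with only the groups compared in the fit (adjusted p = 0.227). It was also lost when wild-type solvent replicate 1, 2 or 3, wild-type FK228 replicate 1, or any 1 of the heterozygous solvent replicates 1, 2, 4 and 5 was left out, with differences of -0.65 to -0.79 and adjusted p of 0.0503 to 0.125. Without the 3 libraries with few reads outside genes it was -0.90 (adjusted p = 0.0720). With FK228 the genotypes overlapped, at a difference of 0.12 (95% interval -0.17 to 0.42, adjusted p = 0.813). The difference between the FK228 effects of the 2 genotypes was 0.86 ± 0.23, with an unadjusted p of 0.00139 and an adjusted p of 0.469, which did not pass.

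Celf5 and Srrm3 were the members that rose in both genotypes, so the bases upstream of a RefSeq start site of each are shown, for Celf5 the outermost of 5 (GRCm38.p6, 5′ to 3′ on the strand of the gene). Capitals mark GC boxes, the letters GGGCGG on either strand, and bases that GENCODE M21 counts as exon were left off.
Celf5 upstream, chr10:81482710-81482949, minus strand: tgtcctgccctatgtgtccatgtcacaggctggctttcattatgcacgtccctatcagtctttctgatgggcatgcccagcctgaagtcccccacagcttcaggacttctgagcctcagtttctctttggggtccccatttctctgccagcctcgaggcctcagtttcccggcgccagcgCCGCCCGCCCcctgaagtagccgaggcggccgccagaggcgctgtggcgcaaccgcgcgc
Srrm3 upstream, chr5:135817856-135818105, plus strand: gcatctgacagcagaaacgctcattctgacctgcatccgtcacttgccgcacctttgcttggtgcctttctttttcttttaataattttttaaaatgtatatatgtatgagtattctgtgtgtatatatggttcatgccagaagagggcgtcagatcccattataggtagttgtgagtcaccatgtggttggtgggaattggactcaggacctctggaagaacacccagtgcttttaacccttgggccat
The stretch upstream of Celf5 holds 2 GC boxes that overlap in the printed 240 bases, and 15 CpG. The Srrm3 start site lies 11216 bases inside the gene as GENCODE M21 gives it, so the stretch printed is not upstream of the gene's annotated start. Its 250 bases hold no GC box and 4 CpG, against a median of 6 CpG over all 32851 RefSeq windows of that length. GC boxes are common, since 32.7% of those windows hold at least 1. The full window of Celf5 holds 3 GC boxes and 17 CpG. Of the members that fell with FK228 in both genotypes, Ptbp2 has 6 and 23 in its window and Ptbp1 has 0 and 17. Of the 10 genes, 8 had an entry, with 13 start sites in all, and Rest and Rbfox2 had none. The RE1 letters searched were CAGCACC, then 2 bases of any kind, then GGACAG, on both strands. None of the 13 windows of the 8 genes matched the fixed letters, 13 in number, with at most 2 mismatches, against 1.49% of all windows. A match or its absence describes these letters in these windows and says nothing about binding.

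Of the 3 RBFOX genes, Rbfox3 passed the test for genotype in solvent. With FK228, Rbfox2 and Rbfox3 passed in wild-type and Rbfox1 in heterozygous cultures, each as lower, and differences between the genes were not tested. Rbfox3 encodes the neuronal nuclear antigen NeuN, and its levels were 8.36, 6.27, 6.51 and 7.36 CPM in wild-type solvent and 5.68, 4.29, 3.92 and 4.87 in wild-type FK228. In heterozygous solvent they were 1.96, 1.31, 3.70 and 2.26, and in heterozygous FK228 3.63, 2.27, 3.38 and 4.33. All heterozygous libraries lay below all wild-type libraries of solvent cultures. The fitted difference between genotypes in solvent was -1.63 ± 0.26 (adjusted p = 0.00139, 3.08-fold lower), and it passed the test with each library left out in turn (adjusted p at most 0.00717). With FK228 the difference was -0.47 ± 0.26 (adjusted p = 0.477).

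The summed level of the 10 neuron markers was also lower in heterozygous than in wild-type solvent. It was 278 to 493 CPM in wild-type solvent and 139 to 233 in heterozygous solvent. Past the test, 4 of the 10 (Tubb3, Nefl, Nefm and Nefh) were lower and none higher in heterozygous solvent, beside 2.03% of all genes. Nefl and Nefm made up most of the sum, at means of 132 and 123 of 350 CPM in wild-type solvent. The other 6 did not pass, and the Gap43 mean was higher in heterozygous solvent (39.0 against 35.4 CPM). With FK228 the sums were 349 to 645 CPM in wild-type and 240.3 to 338 in heterozygous cultures. In wild-type cultures the mean sum was higher with FK228 than in solvent (524 against 350 CPM), with ranges that overlapped. Past the test, 3 of the 10 markers rose and 3 fell there, beside 49% of all genes, and Rbfox3 was lower. The part of the neuron markers in the Rbfox3 result was not tested, and neuron number was not measured. The summed hair cell markers were 330.4 to 424 CPM in wild-type and 257 to 379 CPM in heterozygous solvent. None of the 10 hair cell markers passed the test in edgeR, DESeq2 or limma. In edgeR 4 had an unadjusted p under 0.05, beside 1936 of all 17125 genes.

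In wild-type cultures Rbfox3 fell with FK228 by 0.60 ± 0.24 on the log2 scale (adjusted p = 0.0471). In heterozygous cultures the fitted value was 0.56 (95% interval -0.01 to 1.12, adjusted p = 0.0987). The wild-type call was lost on leaving out any 1 of the wild-type solvent replicates 1, 2, 3 and 4, wild-type FK228 replicates 2, 4 and 7, heterozygous solvent replicate 5, or heterozygous FK228 replicates 2 and 4 (adjusted p at most 0.120). It was also lost with RLE factors, with no filter, with the stricter filter, with the Y-linked level as a term and on the deposited normalized signal (adjusted p of 0.0508 to 0.0832). Without the 3 libraries with few reads outside genes the value was -0.51 (adjusted p = 0.0619), and with reads outside genes as a term it was -0.34 (adjusted p = 0.237). The heterozygous value passed without heterozygous solvent replicate 4 (0.88, adjusted p = 0.00949), without heterozygous FK228 replicate 3 (0.71, adjusted p = 0.0447) and without the 3 libraries with few reads outside genes (1.05, adjusted p = 0.00884). It also passed with reads outside genes as a term (0.86, adjusted p = 0.0112), and it was -0.13 with spike-in scaling. The difference between the 2 FK228 effects was 1.16 ± 0.36, with an unadjusted p of 0.00500 and an adjusted p of 0.567.

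Rbfox1, also mostly neuronal, was 6.87, 3.36, 2.36 and 2.87 CPM in wild-type solvent and 3.63, 1.93, 1.33 and 2.89 in wild-type FK228. In heterozygous solvent it was 2.31, 2.62, 2.56 and 3.29, and in heterozygous FK228 1.13, 1.10, 1.96 and 0.551. Wild-type solvent replicate 1 held the highest level of the 16 libraries, and the heterozygous FK228 libraries lay below all solvent libraries. In heterozygous cultures FK228 lowered Rbfox1 by 1.16 ± 0.41 on the log2 scale (adjusted p = 0.0240, 2.24-fold), and the call was lost without heterozygous solvent replicate 5 or heterozygous FK228 replicate 2, 3 or 5 (adjusted p at most 0.0762) and without the 3 libraries with few reads outside genes (-1.04, adjusted p = 0.0620). With reads outside genes as a term it was -0.82 (adjusted p = 0.0759). In wild-type cultures the value was -0.66 (95% interval -1.42 to 0.10, adjusted p = 0.139), and the difference between the 2 effects had an adjusted p of 0.987. Between genotypes, Rbfox1 differed by -0.53 (adjusted p = 0.679) in solvent and by -1.03 (95% interval -1.88 to -0.18, adjusted p = 0.261) with FK228. Without wild-type solvent replicate 1 the FK228 value in wild-type cultures was -0.22 and the genotype value in solvent -0.09.

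Rbfox2, the more broadly expressed member of the family, had the highest RBFOX level. It was 25.1, 30.9, 30.6 and 27.2 CPM in wild-type solvent and 22.4, 24.1, 21.1 and 19.6 in wild-type FK228, with no overlap. In heterozygous solvent it was 26.9, 27.0, 29.9 and 26.6, and in heterozygous FK228 28.2, 26.2, 24.3 and 19.0, which overlapped. FK228 lowered Rbfox2 by 0.38 ± 0.11 in wild-type cultures (adjusted p = 0.00957). This call was lost in a fit with the replicate block (-0.30, adjusted p = 0.0563). In heterozygous cultures the value was -0.18 (95% interval -0.42 to 0.07, adjusted p = 0.219), and the difference between the 2 effects was 0.21 (adjusted p = 0.966). Spike-in scaling gave a heterozygous value of -0.88, which passed the test (adjusted p = 0.000295).

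Nova1 ranged from 1.37 to 4.02 CPM over the 16 libraries, and its groups overlapped throughout. Its means were 2.99 ± 0.788 in wild-type solvent, 3.43 ± 0.478 in wild-type FK228, 2.52 ± 0.830 in heterozygous solvent and 2.71 ± 0.423 in heterozygous FK228. FK228 gave 0.19 (95% interval -0.34 to 0.72) in wild-type and 0.11 (-0.45 to 0.66) in heterozygous cultures, and genotype gave -0.25 (-0.80 to 0.29) in solvent and -0.34 (-0.88 to 0.20) with FK228. None of these passed the test with TMM factors. With spike-in scaling the genotype value with FK228 was -1.06, which passed (adjusted p = 0.00235). Heterozygous FK228 against wild-type solvent then gave -0.99, which also passed (adjusted p = 0.00332).

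**Figure D3:**
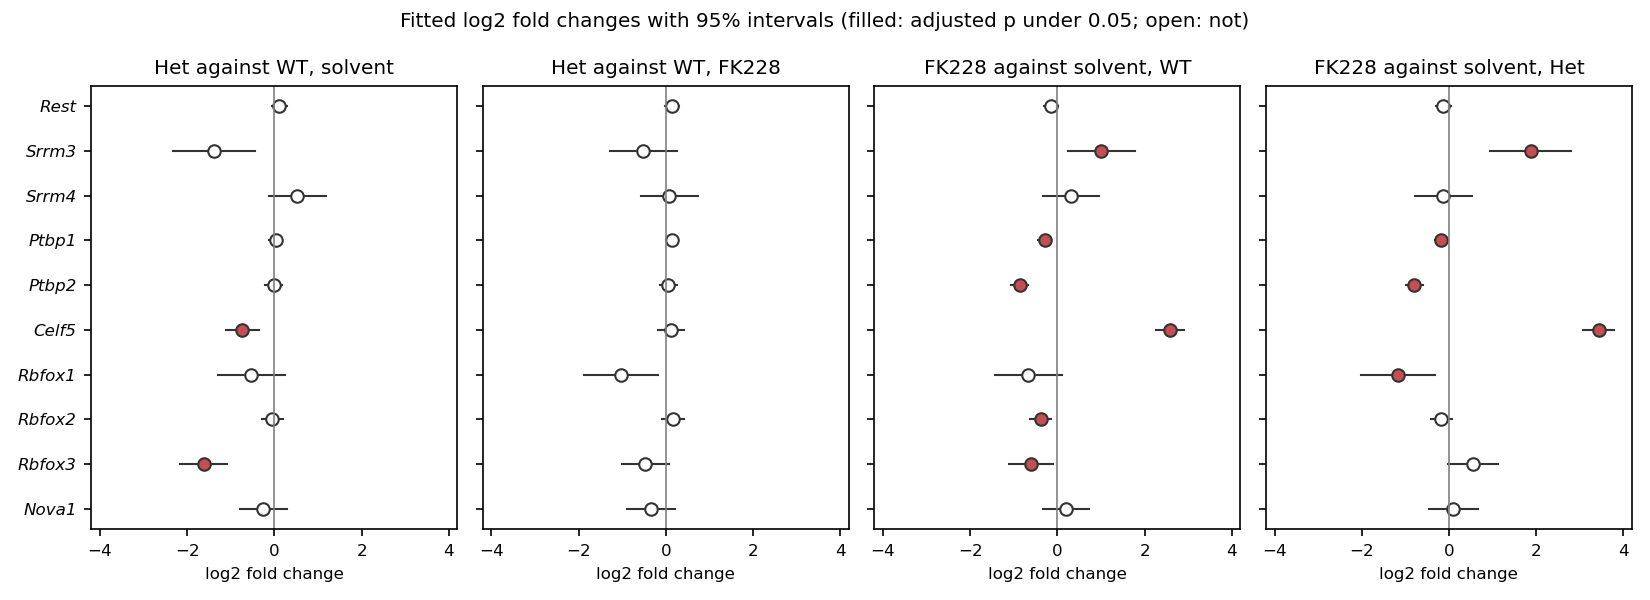
Fitted log2 fold changes of the 10 genes with 95% intervals in 4 comparisons, filled where the adjusted p was under 0.05. With FK228, Celf5 and Srrm3 lie to the right of 0 and Ptbp1 and Ptbp2 to the left in both genotypes, and in solvent only Celf5 (-0.73) and Rbfox3 (-1.63) are filled for genotype.

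Counted together, 2 of the 10 genes were lower and none higher in heterozygous than in wild-type solvent cultures, where 2.03% of all 17125 genes passed the test. With FK228 none of the 10 differed by genotype in edgeR, where 2.14% of all genes passed. An unadjusted p under 0.05 was found for 1 (Rbfox1), beside 2210 of all 17125 genes. DESeq2 and limma on the normalized signal also called none. With spike-in scaling 9 of the 10 were lower in heterozygous FK228 cultures, beside a shift of all genes in the same direction. Among these 9 were Srrm3 (-1.23), Rbfox1 (-1.74), Rbfox3 (-1.19) and Nova1 (-1.06), with a largest adjusted p of 0.0153. In wild-type cultures FK228 raised 2 and lowered 4, and in heterozygous cultures it raised 2 and lowered 3. With spike-in scaling the split was 1 raised and 4 lowered in wild-type and 1 raised and 6 lowered in heterozygous cultures. The background was 49% of all genes in wild-type and 48.4% in heterozygous cultures, so these shares of members were near those of all genes. The median log2 fold change of the 10 was -0.22 and -0.13, against -0.01 and 0.00 over all genes tested. The difference between the FK228 effects passed for none of the 10 in edgeR, DESeq2 (2 genes with a value) or limma, against 0.0234% of all genes. In edgeR 2 (Celf5 and Rbfox3) had an unadjusted p under 0.05, beside 995 of all 17125 genes. The 2 FK228 comparisons share no libraries, but the genotype and FK228 comparisons share their solvent groups.

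Against wild-type solvent, the heterozygous FK228 cultures differed in 4 of the 10, beside 50.7% of all genes. Celf5 was higher by 2.71 ± 0.16. Rbfox1 was lower by 1.69 ± 0.39, Rbfox3 by 1.07 ± 0.25 and Ptbp2 by 0.81 ± 0.09 on the log2 scale (largest adjusted p = 0.00166). Rest had a value of -0.01 (95% interval -0.17 to 0.16), Srrm4 0.39 (-0.27 to 1.05) and Srrm3 0.49 (-0.31 to 1.29). With spike-in scaling these values were -0.88 (adjusted p = 5.3e-06), -0.52 (adjusted p = 0.158) and -0.38 (adjusted p = 0.444), so Srrm4 and Srrm3 turned direction. Ptbp1 had -0.16 (adjusted p = 0.0655) and passed without wild-type solvent replicate 4 (-0.21, adjusted p = 0.0186).

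The 9 further neural splicing regulators, of the NOVA, ELAVL (Hu), CELF and KHDRBS families, were taken from a list of names. That list was chosen with earlier results of these data known. In edgeR none passed for genotype in solvent, where 4 had an unadjusted p under 0.05 and DESeq2 called 1, or with FK228, where 3 had one and DESeq2 called 0. Limma called 0 in both. Of all 17125 genes, 1936 in solvent and 2210 with FK228 had an unadjusted p under 0.05 in edgeR, and 2.03% and 2.14% passed. With spike-in scaling 1 (Elavl4, -0.91, adjusted p = 0.0406) was lower in heterozygous solvent and 7 of the 9 were lower in heterozygous FK228 cultures. With FK228, 5 rose and 1 fell in wild-type cultures, and 6 rose and none fell in heterozygous cultures, beside 49% and 48.4% of all genes that passed in either direction. The median log2 fold changes were 0.88 and 1.12. With spike-in scaling the split was 5 raised and 1 lowered in wild-type and 5 raised and 2 lowered in heterozygous cultures, with medians of 0.73 and 0.41. Celf4, a relative of Celf5, rose from 14.4 ± 1.07 to 26.5 ± 0.907 CPM in wild-type cultures (log2 fold change 0.88, adjusted p = 9.3e-07) and from 13.2 ± 1.26 to 28.8 ± 2.60 in heterozygous cultures (1.12, adjusted p = 5.8e-08). Nova2, the other NOVA gene, rose from 0.441 to 1.76 CPM and from 0.454 to 2.42 CPM (1.99 and 2.39, adjusted p = 0.000379 and 7.8e-05). Celf3 rose by 1.20 and 1.77 and Elavl3, a neuronal Hu protein, by 1.11 and 2.09. Elavl4 fell in wild-type cultures, from 13.8 ± 5.07 to 7.29 ± 2.34 CPM (-0.92, adjusted p = 0.00499). In heterozygous cultures it had -0.56 (adjusted p = 0.0857). Celf6, chosen for naming after its values were seen, had no count in any heterozygous solvent library and averaged 0.369 CPM in heterozygous FK228. This mean was 7.26 times a floor of 3 counts over the heterozygous solvent group. The heterozygous FK228 libraries ranged from 0.135 to 0.681 CPM, so 7.26 is not a lower bound of the fold. Nova2, Elavl3 and Celf6 had solvent means of at most 1.00 CPM. They may have passed the count filter only through their FK228 libraries, so their rises are not independent of that filter.

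**Figure D4:**
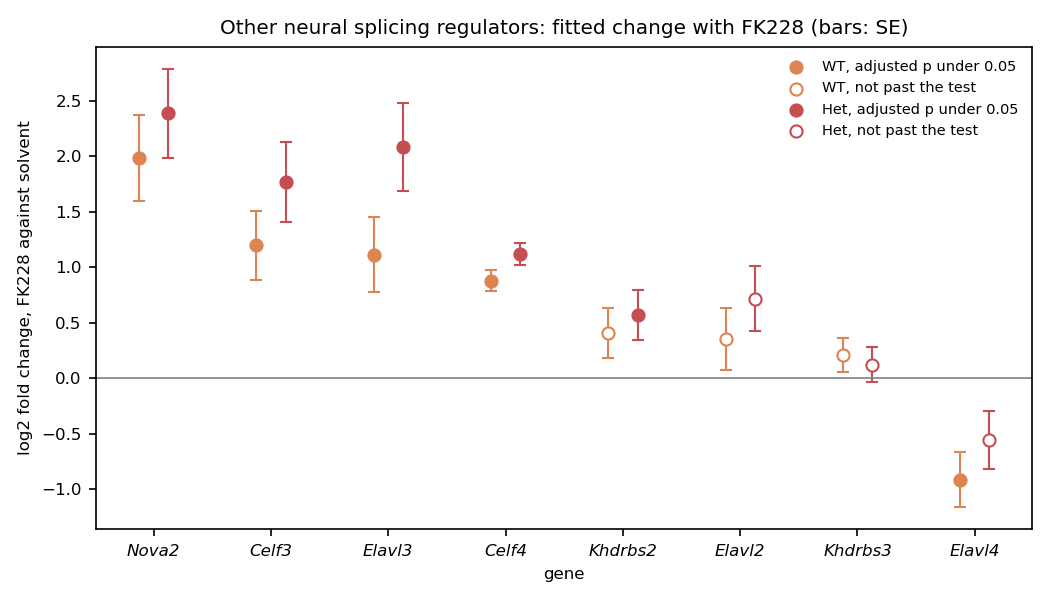
Fitted log2 fold change with FK228 against solvent for 8 of the 9 other neural splicing regulators (Celf6, at 0 in a group, is left out), with SE as bars, in wild-type and heterozygous cultures. Nova2, Celf3, Elavl3 and Celf4 are filled and above 0 in both genotypes, and Elavl4 lies below 0, at -0.92 and -0.56.

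The neuron markers moved in both directions with FK228. Of the 10, 3 rose and 3 fell in wild-type cultures and 5 rose and 3 fell in heterozygous cultures. For this and the next lists, 49% and 48.4% of all genes passed in either direction. Of the 10 hair cell markers 1 rose and 4 fell in each genotype. With spike-in scaling 3 neuron markers rose and 3 fell in each genotype, and of the hair cell markers 1 rose and 5 fell in wild-type and 0 rose and 7 fell in heterozygous cultures. All 8 macrophage markers fell in each genotype with both scalings, and their summed level went from 228 to 259 CPM in wild-type solvent to 33.8 to 42.2 with FK228, and from 133 to 228 CPM to 20.1 to 29.9 in heterozygous cultures. Of 7 mesenchyme markers 1 rose and 6 fell in wild-type and 1 rose and 5 fell in heterozygous cultures, with sums of 2146 to 2763 CPM against 899.8 to 1165 and of 2108 to 3086 CPM against 743 to 1037. Of 8 supporting cell markers 4 fell and none rose in each genotype, and of 5 Schwann cell markers tested 3 fell and none rose in each. The shares of hair cell and supporting cell markers that passed with TMM factors were near those of all genes. Supporting cell sums were 836 to 989.5 CPM in wild-type solvent and 689 to 752 with FK228, and 829.9 to 1284 and 649.7 to 872 CPM in heterozygous cultures. The part of these cell types in the FK228 results of the splicing factors, the falls of Ptbp1 and Ptbp2 included, was not tested.

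Among 20 broadly expressed or epithelial splicing regulators, 5 rose and 5 fell with FK228 in wild-type cultures, and 4 rose and 6 fell in heterozygous cultures. These shares were near the 49% and 48.4% of all genes. With spike-in scaling 1 rose and 5 fell in wild-type, and 0 rose and 17 fell in heterozygous cultures, where 67.3% of all genes passed. The epithelial regulator Esrp1 fell by 0.77 and 0.75 on the log2 scale, and Celf2 by 0.40 and 0.45. Srsf11, which binds with SRRM4 at neural microexons, rose by 0.38 and 0.30, and Celf1 by 0.27 and 0.39. With spike-in scaling neither rise passed in wild-type cultures (0.22, adjusted p = 0.242, and 0.11, adjusted p = 0.557), and both turned to a fall in heterozygous cultures (-0.42 and -0.34). Rbm38 rose by 1.02 and 0.83, the latter 0.10 with spike-in scaling (adjusted p = 0.806). For genotype, 1 of the 20 passed with FK228 and none in solvent, beside 2.14% and 2.03% of all genes. In solvent edgeR gave 1 at an unadjusted p under 0.05, beside 1936 of all 17125 genes, and DESeq2 and limma called 1 each. With spike-in scaling 19 of the 20 were lower with FK228, where 75.1% of all genes passed, and 1 (Mbnl1) in solvent. The gene called with FK228 was Mbnl1, a regulator of developmental splicing, at 1495 to 1881 CPM in wild-type FK228 and 143 to 481 CPM in heterozygous FK228 (log2 fold change -2.55 ± 0.44, adjusted p = 0.00348). In solvent it had 1993 to 2053 CPM in wild-type and 191 to 1172 CPM in heterozygous cultures, without overlap but with a wide spread among the heterozygous libraries, and an adjusted p of 0.0903.

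Of 13 neuronal genes known as REST targets, 5 were lower and none higher in heterozygous solvent cultures, and 3 were lower with FK228, beside 2.03% and 2.14% of all genes. The list was chosen with earlier results of these data known, so its counts do not test it against those shares. With spike-in scaling 12 were lower with FK228, beside 75.1% of all genes. Snap25, which drives vesicle fusion, averaged 18.5 ± 6.90 CPM in wild-type and 1.93 ± 0.761 in heterozygous solvent (-3.25, adjusted p = 6.7e-07), and Chgb, a granin of secretory granules, 11.7 ± 3.93 and 1.60 ± 0.639 (-2.88, adjusted p = 1.7e-06). FK228 raised 7 and lowered none in wild-type cultures, and raised 10 and lowered 1 in heterozygous cultures, Chga among them by 1.96 and 3.16, beside 49% and 48.4% of all genes that passed in either direction. With spike-in scaling the splits were 7 raised and 0 lowered, and 7 raised and 2 lowered. Syn1 and Celsr3, among the 13, had solvent means of at most 0.716 CPM. They may have passed the count filter only through their FK228 libraries, so their FK228 values are not independent of that filter. The difference between the FK228 effects passed in edgeR for 1, Snap25 (2.12, adjusted p = 0.0429), beside 0.0234% of all genes. Limma called 0 of the 13, and DESeq2 called 0 but gave an adjusted p for only 1 of them. The Snap25 value with spike-in scaling was 1.55 (adjusted p = 0.0262). Scn2a then passed in the other direction (-0.87, adjusted p = 0.0407), beside 23.8% of all genes. The same solvent groups carry the neuron marker sums given above.

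Genes with the most similar profile were found by the root mean square difference of centred log2(CPM + 0.5) over the 16 libraries, among 14348 named genes. Rest was closest to Rhoa (0.068), Ddx50 (0.070) and Cmpk1 (0.073), where the median over all genes was 0.351. Srrm3 was closest to Herpud2 (0.197), Rad51b (0.217) and Stoml1 (0.227), with a median of 0.588. Srrm4 was closest to Snora17 (0.244), Zfp605 (0.271) and Bpifb6 (0.275), with a median of 0.526, and Snora17 and Bpifb6 averaged under 0.7 CPM in each group.

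Reads were not told apart by strand, and exons of 4 members overlap other genes in GENCODE M21. Ptbp1 shares 437 of its 4740 exon bases with Gm17134, 295 with E130317F20Rik and 251 with Plppr3, all on the other strand. Celf5 shares 543 of 6668 with the antisense gene Gm16105, Srrm4 68 of 8678 with Srrm4os and Nova1 310 of 8747 with Gm33869. In GRCm38 the other 9 genes lie on chr10:81459227-81482709 (Celf5), chr5:135806890-135874772 (Srrm3), chr5:116439275-116591817 (Srrm4), chr10:79854427-79864771 (Ptbp1), chr3:119718742-119784466 (Ptbp2), chr16:5885355-7411526 (Rbfox1), chr15:77078990-77307004 (Rbfox2), chr11:118489762-118911597 (Rbfox3) and chr12:46694517-46818929 (Nova1).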

How the data were processed

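Polyadenylated RNA was sequenced from 16 libraries, 4 per group. Per the submitters' processing notes, reads were aligned to GRCm38.p4 with STAR 2.5.2a and normalized with DESeq2. The authors deposited a read count of every gene per library and a normalized signal for 21220 genes. Unstranded counts were used, since both strand columns held equal shares (49.8% to 49.9%). Multiplying the deposited normalized signal by 1 number per library (0.801 to 1.41) returned the counts. Spike-in rows, 92 in number, and summary rows were kept out of library sizes.

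Differences were fitted with edgeR 4.0.16 in R 4.3.3, with filterByExpr (minimum count 10, minimum total 15), TMM factors, 1 mean per group over all 16 libraries, quasi-likelihood tests, and Benjamini-Hochberg adjustment over 17125 genes. Calls were made at an adjusted p under 0.05. The test was run on simulated counts with known folds in the heterozygous solvent group alone. They held no FK228 change in wild-type cultures, so they do not check a comparison in which many genes change. Ratios were compared by exact permutation. Alternatives were DESeq2 1.42.0, RLE factors, spike-in scaling, other filters, the replicate block, reads outside genes or Y-linked level as a covariate, only the groups compared, limma 3.58.1 on log2(normalized signal + 1), each library left out and, chosen after seeing the data, leaving out the 3 libraries with under 15% of reads outside genes. Gene positions were read from GENCODE M21 (99.3% of gene identifiers matched) and promoter windows from RefSeq (GRCm38.p6). Members and gene lists were chosen with earlier results of these data known. All members were named, and of each list up to 4 genes per comparison with the smallest p among those past the test. Counting error is largest for Srrm3, with 1 to 25 counts.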

Additional observations from a re-analysis of the deposited data

Results flagged for a closer look

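In 40 groups of 4 libraries (10 genes in 4 groups), 1 library stood far from the other 3 in 2 groups, and chance flags about 1 in 20 groups. Rbfox2 was 29.9 CPM in heterozygous solvent replicate 4, above the other 3 libraries at 26.6 to 27.0 CPM. Nova1 was 2.72 CPM in wild-type FK228 replicate 7, below the other 3 at 3.62 to 3.75 CPM. With TMM factors no comparison of Nova1 passed the test, and neither did a comparison of Rbfox2 with the heterozygous solvent group.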

How the results depend on the processing

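The number of members past the test was most affected by spike-in scaling, which gave 9 for genotype with FK228, 1 for the difference of FK228 effects and 8 for heterozygous FK228 against wild-type solvent. With it, genotype with FK228 turned to -0.60 for Rest, -0.60 for Ptbp1, -0.68 for Ptbp2, -0.62 for Celf5 and -0.56 for Rbfox2, and the difference of FK228 effects for Rest turned to -0.54. The scaling moves all genes by construction. For genotype in solvent 1 member was called with only the groups compared, and 1 without the 3 libraries with few reads outside genes. Leaving out each library gave 1 to 2 members for genotype in solvent, 0 for genotype with FK228, 4 to 6 for FK228 in wild-type cultures, 3 to 5 for FK228 in heterozygous cultures, 0 for the difference and 4 to 5 for heterozygous FK228 against wild-type solvent. The FK228 minus solvent difference of the log2 ratio of Ptbp2 to Ptbp1 was between -0.62 and -0.53 in wild-type and between -0.63 and -0.55 in heterozygous cultures.

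Same-numbered libraries correlated between -0.23 and 0.17 in their deviations from the group means. These values were not set against those of differently numbered libraries, and the labels do not say what a number stands for. Whether the numbers pair the libraries was thus not settled. A fit with the replicate block called 1 member for genotype in solvent, 3 for FK228 in wild-type and 3 for FK228 in heterozygous cultures. It lost the call of Celf5 for genotype in solvent. For FK228 it lost those of Srrm3, Rbfox2 and Rbfox3 in wild-type and of Ptbp1 and Rbfox1 in heterozygous cultures. DESeq2 kept all 52 member comparisons for which it gave a value on the same side of the threshold, and gave no adjusted p for 8 of the 10 members in the difference of FK228 effects. The stricter filter (1 CPM in 8 libraries) removed Srrm3. The fit with only the groups compared has no value for the difference, and none for Srrm3 in the comparison of genotype in solvent. Low counts limited Srrm3 most.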
